A study of Mus musculus with 10 samples.

Results

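The 10 genes described here belong to the TREM2 receptor pathway and the lipid-associated macrophage programme, and were followed through 5 myeloid populations of the mouse mammary gland. They are Trem2, Tyrobp, Apoe, Lpl, Fabp5, Gpnmb, Spp1, Cst7, Cd9 and Cd63, taken by symbol from a table of 27179 genes. All 10 were present, and all 10 were among the 15681 genes that passed the filter on low counts. The populations were ductal macrophages, stromal macrophages and 3 kinds of dendritic cell, named CD11b+, CD11b-CD103+ and CD11b-CD103- after their surface markers. All came from virgin adult females of strain C57BL/6, whose mammary glands were sorted, with no treatment, transgene or deletion in the labels, and each has 2 libraries labelled as biological replicates. The labels do not say whether a replicate is 1 mouse or a pool, so p-values measure the spread between these libraries.

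TREM2 is a lipid- and lipoprotein-sensing receptor of macrophages and microglia. It has no signalling tail of its own and works through the adaptor DAP12, the product of Tyrobp, which recruits the kinase SYK. Macrophages that take up lipid in adipose tissue, atherosclerotic vessels or demyelinated brain are known to express, with Trem2, genes for lipid carriage and hydrolysis (Apoe, Lpl, Fabp5), for lysosomal and secreted proteins (Gpnmb, Spp1, Cst7) and for tetraspanins (Cd9, Cd63). The mammary gland of a virgin female is an epithelial tree in a fat pad, and its macrophages lie along the ducts or in the stroma.

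Library totals ran from 5636092 to 23093742 counts, with the smallest in the ductal macrophages and in 1 CD11b+ library. The stromal libraries stood apart by their mitochondrial transcripts, at 24.8% and 23.1% of counts, against 0.631% to 6.29% in the other 8 libraries. The 10 genes of a macrophage marker list summed to 25516 and 25174 counts scaled to a common library total (CPM, on normalized totals of the genes tested) in ductal macrophages, to 9992 and 7367 CPM in stromal macrophages and to 601 to 4608 CPM in the dendritic cells. Flt3, a defining receptor gene of dendritic cells, was at 314 to 520 CPM in both CD11b- populations. In CD11b+ dendritic cells it was at only 16.8 and 18.1 CPM. Adgre1 (F4/80) was at 331 and 253 CPM there, and a 5-gene monocyte list at 3738 and 3039 CPM. A 6-gene dendritic cell list that includes Flt3 summed to 315 and 182 CPM there, against 843 to 1225 CPM in the CD11b- populations. A 6-gene list of type 2 dendritic cells (cDC2), which includes the sorting marker gene Itgam, was highest there, at 2779 and 2175 CPM. It was at 37.3 to 99.2 CPM in the CD11b- populations and 699 to 1857 CPM in macrophages. The markers thus bear out the CD11b+ dendritic cell label only in part, and ductal macrophages also had transcripts of the dendritic cell lists. These are bulk samples, in which fewer cells of a type and less RNA per cell cannot be told apart.

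The 10 genes did not follow each other through the 5 populations. On mean CPM, Tyrobp, Apoe, Gpnmb, Cst7 and Cd63 were highest in ductal macrophages, and Trem2 was highest in stromal macrophages. Lpl and Fabp5 were highest in CD11b+ dendritic cells, Cd9 in CD11b-CD103+ dendritic cells and Spp1 in CD11b-CD103- dendritic cells. Over the 10 libraries, log2 CPM of Trem2 had a Pearson r of 0.97 with Apoe and of -0.96 with Spp1, a description over libraries that share 5 populations.

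**Figure D1:**
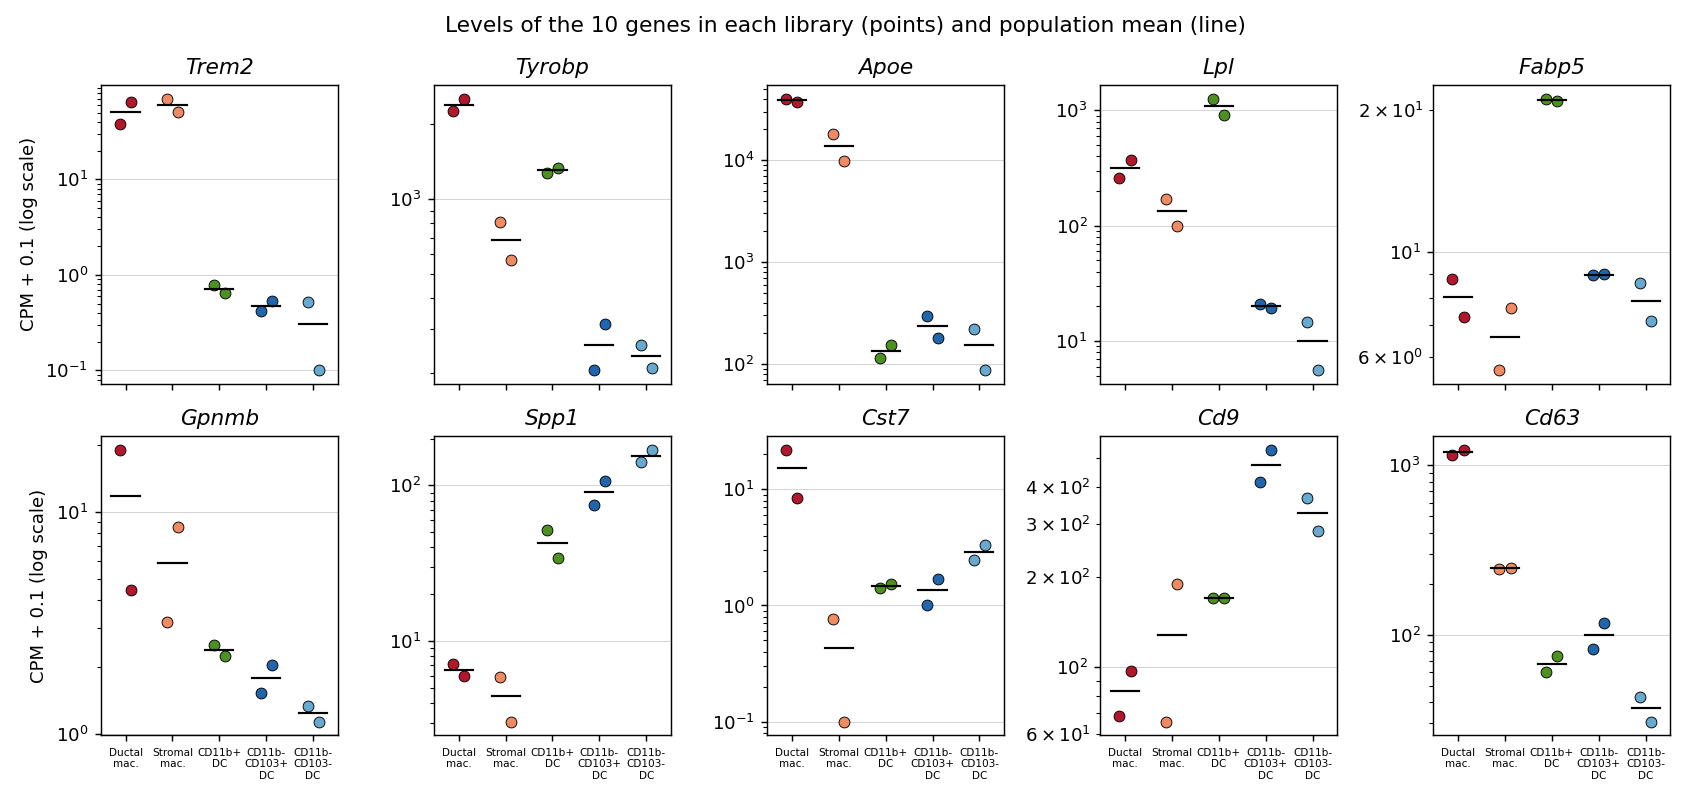
Level of each of the 10 genes in every library, as CPM plus 0.1 on a log axis with its own range per panel; points are libraries, lines are population means, and macrophages (mac.) stand left of dendritic cells (DC). Apoe and Trem2 separate all macrophage from all dendritic cell libraries, Lpl and Fabp5 peak in CD11b+ dendritic cells, and Spp1 and Cd9 are highest in the CD11b- populations.

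The proximal promoters of 4 genes with opposite patterns are given here as reference sequence: Trem2 and Apoe, high in macrophages, and Spp1 and Cd9, high in CD11b- dendritic cells. Each is the 150 bases that end just before the most upstream transcription start among the RefSeq promoters used here, on GRCm38.p6. They are read 5′ to 3′ on the strand of the gene, with capitals for a match to a searched motif. They lie at chr17:48346251-48346400 (+), chr7:19699189-19699338 (-), chr5:104434961-104435110 (+) and chr6:125494761-125494910 (-). The promoters used hold 3 starts for Apoe and 2 for Spp1. The gene record of Apoe reaches further upstream than its window, to chr7:19701310. That of Cd63, searched below, likewise begins at chr10:128896231, before its window at chr10:128909195-128909344.
Trem2: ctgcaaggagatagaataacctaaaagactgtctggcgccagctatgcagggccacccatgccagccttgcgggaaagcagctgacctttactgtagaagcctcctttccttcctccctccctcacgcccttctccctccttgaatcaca
Apoe: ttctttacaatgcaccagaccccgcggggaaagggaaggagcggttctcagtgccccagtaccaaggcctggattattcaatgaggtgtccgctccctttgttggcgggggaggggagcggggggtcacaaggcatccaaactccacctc
Spp1: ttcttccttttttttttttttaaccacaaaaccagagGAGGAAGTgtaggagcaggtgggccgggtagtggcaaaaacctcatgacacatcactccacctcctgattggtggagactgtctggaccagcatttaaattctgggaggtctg
Cd9: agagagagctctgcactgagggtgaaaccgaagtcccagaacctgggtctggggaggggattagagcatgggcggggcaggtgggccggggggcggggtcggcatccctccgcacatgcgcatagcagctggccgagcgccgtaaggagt

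Sites of 3 kinds were searched on both strands of such windows for the 7 members that the promoter table holds; Tyrobp, Lpl and Fabp5 were not searched. The word GAGGAAGT, a core of the sites bound by the myeloid factor PU.1, was found in Spp1 only, on the gene's strand at bases -113 to -106. It occurs in 450 of 27025 promoters of this length (1.67%). Neither TGACTCA, the AP-1 word (2.8% of promoters), nor TCATGTG or TCACGTG, the M-box and CLEAR words of the MiT factors (4.06%), was found in any of the 7.

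Trem2, the receptor, was a macrophage gene in these libraries. It was at 37.6 and 64.5 CPM in ductal macrophages, at 70.1 and 50.1 CPM in stromal macrophages, and at 0 to 0.688 CPM in the 6 dendritic cell libraries. The macrophage libraries of both kinds overlapped with each other and lay far above all dendritic cell libraries. CD11b-CD103- replicate 2 had 0 counts, where 3 counts would give 0.136 CPM. The log2 fold change was 7.17 ± 0.44 (SE) for ductal macrophages against the mean of the 3 dendritic cell populations, and 7.40 ± 0.43 for stromal macrophages (edgeR quasi-likelihood test, Benjamini-Hochberg adjusted p = 8.55e-07 and 6.63e-07). Without CD11b-CD103- replicate 1, the library of that population in which Trem2 was counted, these values were 8.65 and 8.89, and the CD11b+ over CD11b- value, 1.30 ± 0.77 and not called, was 3.52 (adjusted p = 0.0179). Between the macrophages the difference was not called, at -0.23 ± 0.48 for ductal over stromal (adjusted p = 0.746).

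Tyrobp, the adaptor, was present in all 5 populations in a graded way. It stood at 2267 and 2541 CPM in ductal macrophages, 805 and 566 CPM in stromal macrophages, 1272 and 1339 CPM in CD11b+ dendritic cells, 204 and 314 CPM in CD11b-CD103+ dendritic cells, and 259 and 210 CPM in CD11b-CD103- dendritic cells. Ductal libraries were highest, and the CD11b+ dendritic cells, with almost no Trem2, lay above the stromal macrophages in both libraries. Ductal over CD11b+, the next population in level, was 0.88 ± 0.30 and not called (adjusted p = 0.0561). Ductal over stromal was 1.81 ± 0.31 (adjusted p = 0.00132) and CD11b+ over CD11b- dendritic cells 2.41 ± 0.25 (adjusted p = 6.41e-05). CD11b+ over stromal, at 0.93 ± 0.30 (adjusted p = 0.0423, with 14.5% of all genes higher in that direction), lost its call without either ductal library, either CD11b+ library or stromal replicate 2 (0.70 to 0.96, adjusted p 0.0635 to 0.205), and with the replicate number as a block (0.93, adjusted p = 0.0662). Stromal macrophages over all dendritic cells, at 0.68 ± 0.23 (adjusted p = 0.0417), lost it in 11 of 17 settings. Among these it was 0.29 (adjusted p = 0.239) with library totals as the only scaling and 0.32 (adjusted p = 0.450) without stromal replicate 1; the other libraries whose omission ended the call were both ductal, both CD11b+, CD11b-CD103+ replicate 1 and CD11b-CD103- replicate 2.

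Apoe, which encodes the lipoprotein that carries cholesterol out of macrophages, was the most abundant of the 10 genes in the macrophages. Ductal macrophages had 40236 and 37330 CPM and stromal macrophages 17898 and 9761 CPM. CD11b+ dendritic cells had 115 and 154 CPM, CD11b-CD103+ dendritic cells 295 and 181 CPM and CD11b-CD103- dendritic cells 220 and 86.6 CPM. Every macrophage library was thus far above every dendritic cell library. The CD11b-CD103- dendritic cells overlapped with both other dendritic cell populations, which did not overlap with each other. The log2 fold change against dendritic cells was 7.83 ± 0.41 for ductal and 6.35 ± 0.39 for stromal macrophages (adjusted p = 2.67e-07 and 8.30e-07). Ductal over stromal was 1.49 ± 0.50 (adjusted p = 0.0441), with no overlap between libraries. That call was lost without either ductal library, stromal replicate 2 or either CD11b+ library (1.11 to 1.54, adjusted p 0.0623 to 0.182).

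Lpl, the gene of the lipoprotein lipase that frees fatty acids from triglyceride-rich lipoproteins, was highest in CD11b+ dendritic cells. It was at 262 and 368 CPM in ductal macrophages, 170 and 99.1 CPM in stromal macrophages, 1268 and 904 CPM in CD11b+ dendritic cells, 20.9 and 19.3 CPM in CD11b-CD103+ dendritic cells and 14.4 and 5.47 CPM in CD11b-CD103- dendritic cells. No 2 populations overlapped. CD11b+ over CD11b- dendritic cells was 6.27 ± 0.39 (adjusted p = 1.89e-06). CD11b+ dendritic cells over ductal macrophages was 1.79 ± 0.43 (adjusted p = 0.0114, with 11.4% of all genes higher in that direction), and was not called without ductal replicate 1 (1.56, adjusted p = 0.122) or CD11b+ replicate 1 (1.52, adjusted p = 0.0813). Because the fold against dendritic cells averages 3 populations on the log scale, it was positive for ductal (2.39 ± 0.31) and stromal macrophages (1.17 ± 0.32) although both lay below the CD11b+ population. The stromal value lost its call with library totals as the only scaling (0.76, adjusted p = 0.0824) and without stromal replicate 1 (0.65, adjusted p = 0.250).

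Ductal over stromal Lpl was 1.23 ± 0.42 (adjusted p = 0.0471). Without either ductal, CD11b+ or CD11b-CD103+ library or stromal replicate 2, it was 0.89 to 1.45 and not called (adjusted p 0.0624 to 0.223), nor was it with library totals only (1.15, adjusted p = 0.0544). Adipocytes also make Lpl, and a 7-gene adipocyte list summed to 447 and 478 CPM in stromal macrophages, against 5.24 to 92.2 CPM in the other libraries. The CD11b+ libraries, highest in Lpl, were among the lowest for that list at 5.91 and 15.1 CPM, and so were the ductal libraries at 5.24 and 14.9 CPM. What part adipocyte RNA had in the stromal Lpl level was not tested.

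Fabp5, a cytosolic carrier of fatty acids, was low and nearly flat outside the CD11b+ dendritic cells. Those had 21.0 and 20.8 CPM, against 8.85 and 8.87 CPM in CD11b-CD103+ and 8.49 and 7.06 CPM in CD11b-CD103- dendritic cells. Ductal macrophages had 8.66 and 7.19 CPM and stromal macrophages 5.52 and 7.50 CPM, and these 4 libraries overlapped with the CD11b-CD103- dendritic cells. CD11b+ over CD11b- dendritic cells was 1.33 ± 0.27 (adjusted p = 0.00462), and not called without CD11b+ replicate 1 (1.32, adjusted p = 0.0516). Stromal macrophages were called lower than dendritic cells, at -0.79 ± 0.28 (adjusted p = 0.0417), a call lost without any 1 of 8 libraries (adjusted p 0.0530 to 0.160), the exceptions being stromal replicate 2 and CD11b-CD103- replicate 2.

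Gpnmb and Cst7 were higher in ductal macrophages than in dendritic cells but rested on few counts. Gpnmb, a transmembrane glycoprotein of the lysosome-melanosome system, was at 18.9 and 4.35 CPM in ductal macrophages, 3.09 and 8.49 CPM in stromal macrophages and 1.04 to 2.41 CPM in dendritic cells. Both macrophage kinds overlapped with each other and lay above all dendritic cell libraries. The fold against dendritic cells was 2.81 ± 0.53 for ductal and 1.82 ± 0.53 for stromal macrophages (adjusted p = 0.00238 and 0.0194). The first was 1.40 (adjusted p = 0.224) without ductal replicate 1 and 3.52 without ductal replicate 2, and the second 0.91 (adjusted p = 0.294) without stromal replicate 2. With library totals alone as the scaling, the stromal call was also lost (1.52, adjusted p = 0.0543).

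Cst7 encodes cystatin F, an inhibitor of cathepsins made by leukocytes. Its counts were 96 and 44 in ductal macrophages and 12 and 0 in stromal macrophages, or 21.9 and 8.32 CPM against 0.662 and 0 CPM, where 3 counts in the empty library would give 0.173 CPM. CD11b+ dendritic cells had 1.31 and 1.44 CPM, CD11b-CD103+ dendritic cells 0.913 and 1.58 CPM and CD11b-CD103- dendritic cells 2.35 and 3.21 CPM. Ductal libraries stood above all others and stromal libraries below all others. Ductal over CD11b-CD103- dendritic cells, the next population in level, was 2.43 ± 0.90 and not called (adjusted p = 0.0761). Ductal over stromal was 5.46 ± 1.07 (adjusted p = 0.00310). It was 4.61 and 4.49 without ductal replicate 1 or stromal replicate 2, and 10.77 without stromal replicate 1, a fitted value against a single library with 0 counts that is no bound. Ductal over dendritic cells was 3.16 ± 0.65 (adjusted p = 0.00419) and not called without ductal replicate 1 (2.30, adjusted p = 0.163). Stromal macrophages over dendritic cells, -2.30 and not called (adjusted p = 0.0633), was called lower by DESeq2 (-2.39, adjusted p = 0.00748), without the filter on low counts (-2.31, adjusted p = 0.0200), with library totals only (-2.75, adjusted p = 0.0348) and without stromal replicate 1 (adjusted p = 0.00312). T and NK cells also make Cst7; a 9-gene list of theirs summed to 3.64 and 6.05 CPM in ductal macrophages, 2.54 and 7.50 CPM in stromal macrophages and 9.18 to 24.7 CPM in dendritic cells. The part of T and NK cell RNA in the Cst7 values was not tested.

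Spp1, the gene of the secreted integrin ligand osteopontin, ran against the macrophage genes. Ductal macrophages had 7.06 and 5.86 CPM and stromal macrophages 5.74 and 2.94 CPM. CD11b+ dendritic cells had 51.4 and 33.9 CPM, CD11b-CD103+ dendritic cells 74.4 and 107 CPM and CD11b-CD103- dendritic cells 141 and 169 CPM. No macrophage library reached any dendritic cell library, and the 3 dendritic cell populations did not overlap. The fold against dendritic cells was -3.71 ± 0.36 for ductal and -4.28 ± 0.36 for stromal macrophages (adjusted p = 2.18e-05 and 7.50e-06), and the stromal value was -4.92 without stromal replicate 1. CD11b+ over CD11b- dendritic cells was -1.47 ± 0.30 (adjusted p = 0.00505), not called without CD11b+ replicate 2 (-1.20, adjusted p = 0.0812). A same-strand unconfirmed transcript overlaps Spp1 in GENCODE, and what this overlap did to the Spp1 counts was not tested.

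Luminal epithelial cells make Spp1 and Cd9 as well. A 9-gene luminal list summed to 209 and 387 CPM in ductal macrophages, 875 and 2066 CPM in stromal macrophages, 679 and 1497 CPM in CD11b+, 1343 and 715 CPM in CD11b-CD103+ and 911 and 400 CPM in CD11b-CD103- dendritic cells. The CD11b-CD103- library with the higher Spp1 had the lower luminal sum, and the stromal library with the higher Cd9 had the higher one. The milk protein gene Csn2 was at 0 in all 10 libraries. The part of epithelial RNA in the Spp1 and Cd9 values was not tested.

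Cd9, a surface tetraspanin, was highest in the CD11b- dendritic cells. It was at 68.6 and 97.0 CPM in ductal macrophages, 65.7 and 189 CPM in stromal macrophages, 171 and 170 CPM in CD11b+ dendritic cells, 414 and 532 CPM in CD11b-CD103+ dendritic cells and 368 and 285 CPM in CD11b-CD103- dendritic cells. Stromal libraries spanned the ductal and the CD11b+ values. Against dendritic cells, Cd9 was lower in ductal macrophages, at -1.84 ± 0.38 on the log2 scale (adjusted p = 0.00407), though not without ductal replicate 1 (-1.62, adjusted p = 0.0824). In stromal macrophages the value was -1.22 ± 0.36 (adjusted p = 0.0203), -0.73 (adjusted p = 0.0938) without stromal replicate 1 and -2.18 without stromal replicate 2. CD11b+ over CD11b- dendritic cells was -1.21 ± 0.37 (adjusted p = 0.0370), lost without any 1 of 7 libraries: both ductal, both CD11b+, both CD11b-CD103+ and CD11b-CD103- replicate 1 (-1.29 to -1.11, adjusted p 0.0520 to 0.210). Ductal over stromal, -0.62 ± 0.41 and not called, was -1.15 (adjusted p = 0.0210) without stromal replicate 1 and 0.33 without stromal replicate 2. In GENCODE, 2 opposite-strand transcripts overlap Cd9, and the sources used here do not say whether the counting used strand.

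Cd63, the tetraspanin of late endosomes and lysosomes, was highest in ductal macrophages. Its levels were 1143 and 1233 CPM in ductal macrophages, 245 and 247 CPM in stromal macrophages, 60.0 and 75.0 CPM in CD11b+ dendritic cells, 82.7 and 117 CPM in CD11b-CD103+ dendritic cells and 42.6 and 30.7 CPM in CD11b-CD103- dendritic cells. No 2 populations overlapped. Ductal over stromal was 2.27 ± 0.28 (adjusted p = 0.000150), ductal over dendritic cells 4.24 ± 0.20 and stromal over dendritic cells 1.97 ± 0.20 (adjusted p = 1.59e-07 and 2.85e-05). CD11b-CD103+ over CD11b-CD103- dendritic cells was 1.45 ± 0.27 and not called by edgeR (adjusted p = 0.138), but was called by DESeq2 (adjusted p = 4.78e-05) and by edgeR without the filter on low counts (adjusted p = 0.00905).

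Between the macrophage kinds, 5 of the 10 genes were higher in ductal macrophages (Cst7, Cd63, Tyrobp, Apoe and Lpl), where 16.3% of all genes tested were higher. The count was 3 without either ductal library, stromal replicate 2 or either CD11b+ library, the settings in which Apoe and Lpl lost their calls. None of the 10 was lower, nor was any at an unadjusted p under 0.05 or with DESeq2, against 14.3% of all genes. The median log2 fold change was 1.11 over the 10 genes and -0.10 over all genes tested.

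Against the 3 dendritic cell populations, 7 genes were higher in ductal macrophages (15.0% of all genes) and 2 were lower (11.6%), namely Spp1 and Cd9. Fabp5 was not called, except as lower with library totals only (-1.01, adjusted p = 0.0340). Over all genes this was 2355 higher and 1822 lower, but 1361 higher and 3849 lower with library totals as the only scaling. The median was 2.65 over the 10 genes and -0.09 over all genes (-0.58 with library totals only). Without ductal replicate 1 only Spp1 remained called lower. In stromal macrophages 6 genes were higher (20.3%) and 3 were lower (18.2%), and Cst7 was not called by edgeR, but was in the 4 settings given above. Over all genes this was 3177 higher and 2851 lower, but 1908 and 4175 with library totals only. The median of the 10 was 0.92, against 0.03 over all genes. With library totals as the only scaling, which moved the all-gene median from 0.03 to -0.34, the count of 6 was 3, because Tyrobp, Lpl and Gpnmb lost their calls.

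Between dendritic cells, Tyrobp, Lpl and Fabp5 were higher in the CD11b+ population, 3 of 10 genes against 14.0% of all genes, and Spp1 and Cd9 were lower, 2 of 10 against 11.0%. The count of 2 was 1 or 0 without any 1 of the 7 libraries whose omission ended the call of Cd9 or without CD11b+ replicate 2, which ended both. The median was 0.44 over the 10 genes and -0.07 over all genes. With library totals only, the all-gene median was -0.46, and 1261 genes were higher and 3021 lower, against 2202 and 1727. Between CD11b-CD103+ and CD11b-CD103- dendritic cells none of the 10 was called by edgeR, with 3 at an unadjusted p under 0.05 (Cd63, Spp1 and Lpl), and 1 was called by DESeq2. Of all genes, 0.0319% were called higher and 0 lower; 1000 of the 15681 had an unadjusted p under 0.05, and DESeq2 called 119 higher and 30 lower.

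**Figure D2:**
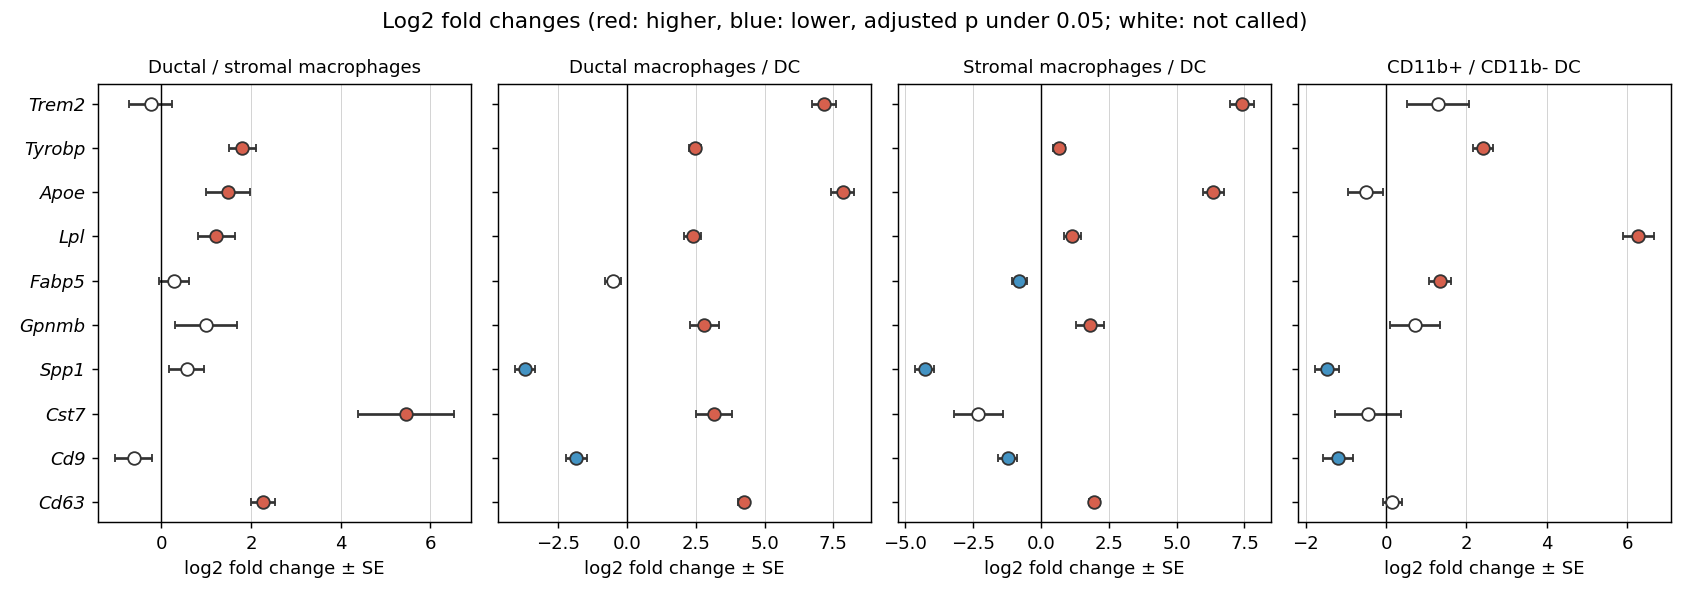
Log2 fold changes with their standard errors for the 10 genes in 4 comparisons, each panel with its own axis; a value right of 0 means higher in the population named first. Red points are called higher and blue points lower at an adjusted p under 0.05. Trem2 and Apoe lie beyond 6 in both comparisons of macrophages with dendritic cells (DC), and Lpl at 6.27 in the comparison of CD11b+ with CD11b- dendritic cells.

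Per unit of transcript length, as counts per kilobase scaled to the library total (RPKM), Apoe at 31001 RPKM and Tyrobp at 4226 RPKM led in ductal macrophages, followed by Cd63 at 1146 RPKM. In stromal macrophages Apoe at 11055 RPKM and Tyrobp led again, and Trem2 at 55.2 RPKM was below Cd9 and Cd63. In CD11b+ dendritic cells the order was Tyrobp, then Lpl, with Trem2 the lowest of the 10. Tyrobp exceeded Trem2 on this scale in every population. On CPM, the 10 genes summed to 44071 and 41660 in ductal macrophages, 19269 and 10932 in stromal macrophages, 2964 and 2700 in CD11b+ dendritic cells and 798 to 1283 in the CD11b- populations. Apoe alone made 89.3% to 92.9% of that sum in macrophages and 3.89% to 26.7% in dendritic cells.

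**Figure D3:**
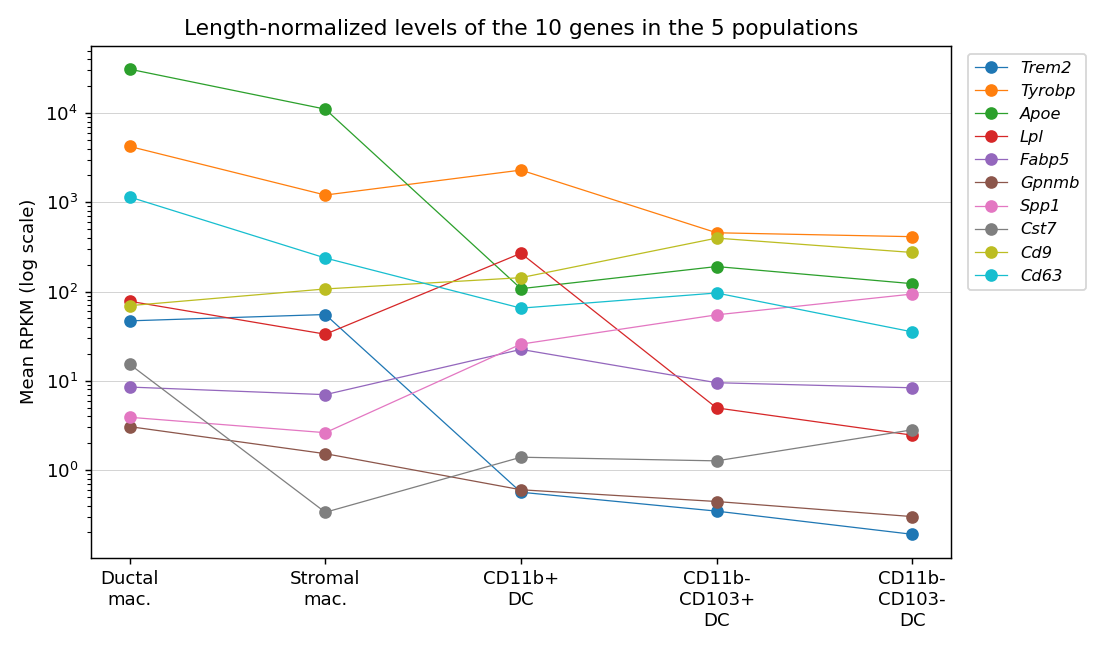
Mean RPKM of each gene (2 libraries per population) on a log axis; thin lines join the points of a gene and stand for no order of the populations. The lines cross between macrophages (mac.) and dendritic cells (DC): Apoe and Trem2 drop, while Spp1 and Cd9 rise to their highest levels in the CD11b- populations.

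The genes whose log2 CPM over the 10 libraries was most like that of Trem2, among 7043 genes with at least 30 CPM in some population, were Itm2b, Scamp5, Ypel3, Selenop and Ctsl, with Pearson r of 0.98 each. Selenop, the gene of the plasma selenoprotein, was at 3610 CPM in ductal macrophages, 8008 CPM in stromal ones and 118 to 302 CPM in the dendritic cells. For Cd63, the one of the 10 genes that had at least 100 CPM in 1 population and at least 4 times its level in every other (Cst7 had such a ratio at a lower level), the most alike were Ctsf (0.99), Il18bp, Lilra5 and Rabgef1 (0.98 each) and Ttyh2 (0.97). Ctsf, a lysosomal cathepsin gene, was at 104 CPM in ductal macrophages, 23.5 CPM in stromal macrophages and 2.43 to 8.48 CPM in dendritic cells. These r values describe 10 libraries that share 5 populations and carry no p.

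Lists of related genes were counted in the same tests, and their counts stand beside these shares of all genes tested. Higher and lower were 16.3% and 14.3% in ductal over stromal macrophages, and 15.0% and 11.6% in ductal macrophages over dendritic cells. They were 20.3% and 18.2% in stromal macrophages over dendritic cells, and 14.0% and 11.0% in CD11b+ over CD11b- dendritic cells. A count near or under its share says nothing particular of a list. A count above it is a description only, because the lists were chosen with earlier results of these data known and some genes recur between lists. Of 16 genes for TREM2 signalling and shedding, 12 were higher in ductal than in stromal macrophages and 1 was lower, with a median of 1.14 against -0.10 over all genes; 7 were higher without stromal replicate 2, and the single lower call was lost without any 1 of 5 libraries (both ductal, both CD11b-CD103+ and stromal replicate 1). The largest were the adaptor Lat2, at 317 against 22.6 CPM (3.81 ± 0.27), Adam17, a sheddase, at 592 against 49.2 CPM (3.59 ± 0.35), and Plcg2, the phospholipase downstream of SYK, at 234 against 35.2 CPM (2.73 ± 0.31). Stromal macrophages had 7 of the 16 lower than dendritic cells and 2 higher (1 without stromal replicate 1 or either CD11b+ library). Ms4a4a, a membrane gene linked to soluble TREM2 in humans, was at 776 CPM in ductal macrophages, 388 CPM in stromal ones and 1.37 to 2.68 CPM in dendritic cells.

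Among 8 tested receptors of the TREM and CD300 family, 5 were higher in ductal than in stromal macrophages and 1 was lower. Of those with at least 30 CPM, Cd300lf (5.06 ± 0.40) and Cd300c2 (4.95 ± 0.30) led. Of the 8, 5 were higher in CD11b+ than in CD11b- dendritic cells, among them the activating receptor Trem1, at 60.9 against 3.30 CPM (4.40 ± 0.70). Treml4 was lower there, at 1.36 against 32.8 CPM (-4.61 ± 0.46). It had 20.2 CPM in ductal macrophages and 0 CPM in stromal macrophages.

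Of 24 genes for lipoproteins, lipases and their receptors, 11 were higher and 1 was lower in ductal than in stromal macrophages (2 lower without stromal replicate 1), with a median of 0.86. Among the higher ones, Nceh1, a cholesteryl ester hydrolase, was at 545 against 15.4 CPM (5.15 ± 0.33). Soat1, which esterifies cholesterol, was at 397 against 66.5 CPM (2.58 ± 0.27). The apolipoprotein gene Apoc2 was at 65.2 against 8.66 CPM. The exporter gene Abca1 was at 715 CPM in ductal macrophages and 121 CPM in stromal ones, and both were above dendritic cells (4.51 ± 0.30 and 1.95 ± 0.30). Msr1, a scavenger receptor, was at 188 CPM in ductal macrophages, 118 CPM in stromal ones and 0.784 to 3.21 CPM in dendritic cells. In stromal macrophages 11 of the 24 were lower and 6 were higher than in dendritic cells, with a median of -0.70 against 0.03 over all genes.

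Fatty acid-binding proteins went the other way. Of the 6 tested, from 10 listed, 5 were lower in ductal than in stromal macrophages (3 without ductal replicate 1 or stromal replicate 2), with a median of -2.61. Dbi, the acyl-CoA-binding protein, was at 67.5 against 245 CPM (-1.86 ± 0.24). Fabp4, which adipocytes and endothelium also make, was at 89.4 against 310 CPM (-1.79 ± 0.54), not called without those same 2 libraries (-1.19 and -1.13, adjusted p = 0.184 and 0.148). The adipocyte list above was likewise higher in the stromal libraries, and its part in these values was not tested.

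Receptors for osteopontin and GPNMB were mostly higher in ductal than in stromal macrophages. Of 11 genes, 9 were called higher (5 without ductal replicate 2), with a median of 1.89, and the other 2 did not pass. The integrin chain genes Itgb5, at 1168 against 25.2 CPM (5.53 ± 0.47), and Itgav, at 188 against 16.2 CPM (3.53 ± 0.35), code for partners in an osteopontin receptor. Cd44, another receptor, was at 68.5 CPM in stromal macrophages against 527 CPM in dendritic cells (-2.81 ± 0.31).

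Most genes of a list of cystatins and their target cathepsins were higher in both macrophage kinds than in dendritic cells. Of 9 tested, 7 were called higher in ductal and 7 in stromal macrophages, and 1 was lower in stromal macrophages. The median in stromal macrophages was 2.17, against 0.03 over all genes. In CD11b+ over CD11b- dendritic cells 5 of the 9 were higher and 1 was lower, with a median of 1.30. Lgmn, the endopeptidase legumain, was at 2422 CPM in ductal macrophages and 654 CPM in stromal ones against 107 CPM in dendritic cells (4.51 ± 0.18 and 2.62 ± 0.18). Cst3, the gene of the secreted cystatin C, was at 1575 CPM in CD11b+ against 7707 CPM in CD11b- dendritic cells (-2.28 ± 0.38).

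A list of 30 further lipid-associated and disease-associated macrophage genes was compared with dendritic cells as well: 17 were higher and 3 lower in ductal macrophages, and 17 higher and 6 lower in stromal macrophages; 6 were lower in ductal macrophages with library totals as the only scaling. It also had 19 higher in CD11b+ than in CD11b- dendritic cells and 2 lower, with a median of 1.15, the count of 2 being 1 or 0 without any 1 of the 7 libraries named for Cd9. Capg, an actin-capping protein gene, was at 1174 against 24.3 CPM (5.60 ± 0.25), and Ctsd, a lysosomal protease gene, at 1733 against 107 CPM (4.11 ± 0.34). Of 17 tetraspanins and partners, 7 were higher and 5 lower in ductal than in stromal macrophages (3 lower without ductal replicate 1). Igsf8, a binding partner of CD9, was at 647 against 30.4 CPM (4.41 ± 0.33), with ductal macrophages low in Cd9 itself.

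Of 17 transcription factors linked to lipid and lysosome genes, 7 were higher in ductal than in stromal macrophages, but 2 without ductal replicate 1. The sterol-sensing receptor gene Nr1h3 (LXR alpha), which activates Apoe and Abca1, was at 62.8 CPM in ductal macrophages, 9.46 CPM in stromal macrophages and 1.89 to 4.96 CPM in dendritic cells. Ductal over stromal was 2.73 ± 0.65, and 1.76 and not called (adjusted p = 0.135) without ductal replicate 1. Ductal over dendritic cells was 4.42 ± 0.48 (adjusted p = 4.74e-05). Cebpb, a factor of inflammatory myeloid genes, was at 2693 CPM in CD11b+ against 263 CPM in CD11b- dendritic cells (3.36 ± 0.29).

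**Figure D4:**
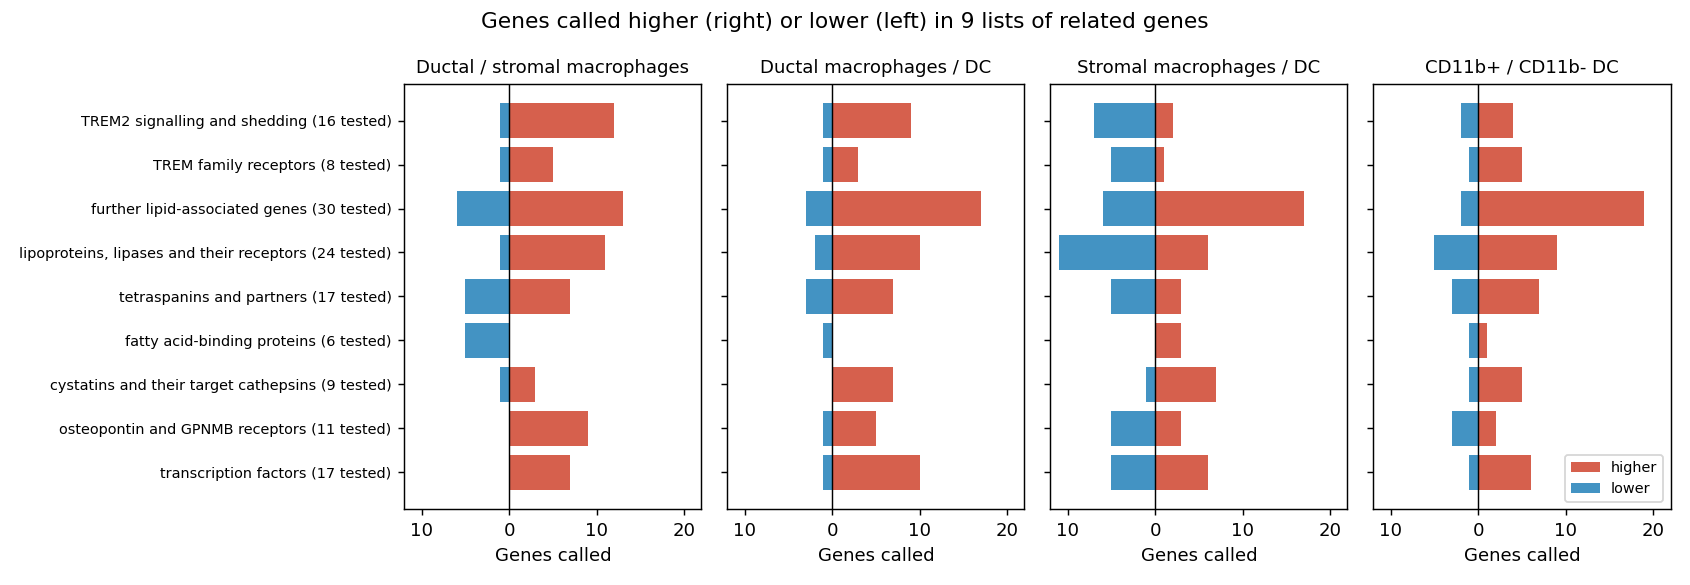
Number of genes called higher (red, right) and lower (blue, left) at an adjusted p under 0.05 in 9 lists of related genes for 4 comparisons, with the number tested in brackets. TREM2 signalling genes and osteopontin receptors are mostly higher in ductal than in stromal macrophages (12 of 16 and 9 of 11), while fatty acid-binding protein genes are lower (5 of 6).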

How the data were processed

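RNA was measured in 10 libraries, made with the TruSeq RNA kit from freshly sorted cells per the labels' protocols. The authors deposited whole-number read counts per gene, made with featureCounts on mm10 per the submitters' processing notes; the aligner and the strand setting are not stated there or in the labels. The 10 per-library tables held the same counts as the series table. Of 27179 gene IDs, 25275 were named from RefSeq, 18 from GENCODE M21 and 1886 had no name and were kept in the totals.

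From the counts, all genes were tested with edgeR 4.0.16 in R 4.3.3: filterByExpr by population (minimum count 10, minimum total 15), TMM scaling, and one quasi-likelihood fit over all 10 libraries with 5 residual degrees of freedom. Contrasts with dendritic cells weighed the 3 populations equally on the log scale. Each SE was derived as the absolute log2 fold change divided by the square root of the test's F, not fitted separately. Calls are Benjamini-Hochberg adjusted p under 0.05 over the 15681 genes tested, and the same procedure was tested on simulated counts. DESeq2 1.42.0 was an alternative, beside other scalings, no filter, a replicate term and leaving out each library. RPKM used the deposited gene length. Floors of 3 counts cover counting error only.

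The 10 genes and the lists of related genes were chosen with earlier results of these data known. From each list up to 4 genes were eligible to be named, those with the largest called change and at least 30 CPM, for each comparison. Promoter sequences are from RefSeq on GRCm38.p6, with 7 of the 10 genes matched, and gene overlaps from GENCODE M21.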

Additional observations from a re-analysis of the deposited data

How the results depend on the processing

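With 2 libraries per population, each gene had 5 residual degrees of freedom, to which the quasi-likelihood fit added information on spread shared across genes. Where 1 library was left out, the lone one was assumed to vary like the rest. Of 39 called fold changes of the 10 genes, 21 kept their call and direction in every setting run for them (17 for the main comparisons, 16 for populations next to each other in level, where the fit on only the populations compared was not run) and none changed sign; the cause of each loss was not tested. With library totals as the only scaling, the all-gene median of stromal macrophages over dendritic cells was -0.34, 3 genes rather than 6 were called higher there, and Cd63 in CD11b+ over CD11b- dendritic cells, uncalled, turned to -0.22. Without the filter on low counts, and with DESeq2, 1 gene (Cd63) rather than 0 was called higher in CD11b-CD103+ over CD11b-CD103- dendritic cells. DESeq2 and the unfiltered fit called 119 and 106 genes higher in that comparison, against 5, and 30 and 44 lower, against 0.

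Leaving out each library gave 3 to 5 genes called higher and 0 to 1 lower in ductal over stromal macrophages, 1 to 2 lower in ductal macrophages over dendritic cells, and 0 to 2 lower in CD11b+ over CD11b- dendritic cells. Counts over all genes ranged from 1555 to 2480 higher and 981 to 2263 lower in ductal over stromal macrophages, 1230 to 2547 and 755 to 2305 in ductal macrophages over dendritic cells, and 1141 to 2376 and 558 to 2206 in CD11b+ over CD11b- dendritic cells. Uncalled values that changed sign were, for ductal over stromal macrophages, Trem2 (-0.68 to 0.10), Gpnmb (-0.41 to 1.90) and Cd9 (-1.15 to 0.33), and for CD11b-CD103+ over CD11b-CD103- dendritic cells Trem2 (-0.13 to 5.56) and Tyrobp (-0.19 to 0.42). Leaving out mitochondrial genes ended no call of the 5 main comparisons for the 10 genes. TPM in place of RPKM moved 43 of 50 levels by more than 1 SD.

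The labels give no shared source for a replicate number. Deviations of same-numbered libraries correlated at -0.176 to 0.177 over the 10 pairs of populations; 4 pairs were over 0.1 (the 3 among ductal, stromal and CD11b+, and the 2 CD11b- populations with each other) and the other 6 were negative, so the numbers were not taken as pairing. With the replicate block, stromal macrophages over dendritic cells lost the edgeR calls of Tyrobp (0.68, adjusted p = 0.0635) and Fabp5 (-0.79, adjusted p = 0.0612). Of the 5 main comparisons no other call of the 10 genes was lost. Between populations next to each other in level the block ended 3 more: CD11b+ over stromal Tyrobp (0.93, adjusted p = 0.0662), CD11b+ over CD11b-CD103- Cd63 (0.87, adjusted p = 0.0698) and CD11b-CD103+ over CD11b+ Spp1 (1.12, adjusted p = 0.0511).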
